A study of Rattus norvegicus with 13 samples.

Results

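The members described here are miR-193, miR-193* and miR-365, which lie beside each other on rat chromosome 10. Work on brown fat concerns miR-365 and miR-193b, a relative of miR-193. The members were taken by name, as the rows of the array whose systematic name is rno-miR-193, rno-miR-193* or rno-miR-365. They make up 3 of the 677 rat miRNAs on the array. The rule uses names alone, though the cluster was picked with earlier results of these data known. miR-193 and miR-193* are the strands cut from the same hairpin, the star marking the strand that is usually the rarer, and miR-365 comes from a neighbouring hairpin.

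miRNA levels were measured in fat of female Sprague Dawley rats, with 1 array per animal. The HFD group (6 arrays) had fathers fed high-fat pellets with 43% as fat, and the Control group (7 arrays) had fathers fed standard chow with 9% as fat. All fathers were mated at 15 weeks of age with females that ate chow, all daughters were weaned onto chow at 3 weeks, and their fat was taken at 14 weeks, so the groups differ by what the father ate and not by what the daughter ate. The comparison asks whether miRNAs in a daughter's fat differ with what her father had eaten. The labels name no fat depot, father or litter, so sisters could not be modelled. The p-values treat each animal as independent, and they could be too small if some daughters share a father or litter.

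A miRNA is cut from a hairpin precursor and guides a silencing complex to messenger RNAs, mainly through its seed, the bases 2 to 8 from its 5′ end. In mouse, miR-193b and the miR-365 beside it are enriched in brown fat, where they were reported to favour the brown over the muscle programme of precursor cells through Runx1t1. Mice that lack the locus were later found to form brown fat, so in that species the pair is a marker of brown fat whose requirement is disputed. A miRNA array measures neither Ucp1, the uncoupling protein that defines brown fat, nor any other messenger RNA.

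The mature sequences are shown because the array names predate the present arm names and because the miR-193 row stands for miR-193a, not for the miR-193b of the brown fat work. The sequences are those of RefSeq on build GRCr8, written 5′ to 3′ with the seed in capitals, and array names were matched to arms through the RefSeq synonyms of the hairpins and the older naming of star strands. The positions are chr10:65170370-65170391 for miR-193, chr10:65170336-65170357 for miR-193* and chr10:65184271-65184292 for miR-365, all on the plus strand.
miR-193 (miR-193a-3p): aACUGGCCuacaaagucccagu
miR-193* (miR-193a-5p): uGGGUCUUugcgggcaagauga
miR-365 (miR-365-3p): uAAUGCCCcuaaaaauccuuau
miR-193b-3p: aACUGGCCcacaaaguccc
The 3 members have 3 different seeds. Of the 693 rat mature miRNAs in the RefSeq table, only miR-193b-3p shares the seed of miR-193, and over the 19 bases of miR-193b-3p the pair differs by 1 substitution, U9C, counted from 1 at the 5′ end with the base of miR-193a-3p first. Mir193b lies 63.3 Mb from Mir193 on the same chromosome (its mature form at chr10:1824994-1825012). The array has no row for miR-193b among the rows used here, and the probe sequences were not used here, so whether the miR-193 probes also bind miR-193b-3p was not tested.

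The hairpins show how the strands sit. In Mir193 (chr10:65170317-65170402) and Mir365b (chr10:65184217-65184302), both 86 bases long and on the plus strand, capitals mark the mature arms.
Mir193: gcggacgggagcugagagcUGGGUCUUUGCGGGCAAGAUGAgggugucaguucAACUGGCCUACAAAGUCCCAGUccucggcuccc
Mir365b: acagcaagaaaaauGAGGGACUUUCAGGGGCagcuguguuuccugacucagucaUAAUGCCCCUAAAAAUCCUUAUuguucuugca
miR-193* is the left arm of Mir193, at bases 20 to 41, and miR-193 is the right arm, at bases 54 to 75. miR-365 is the right arm of Mir365b, at bases 55 to 76. The hairpins are 13814 bases apart, and both lie within the span of the protein-coding gene model Faul2; whether in an exon or an intron was not analysed here. A further miRNA of the array, miR-3549, is read from the opposite strand of the same place, and its 19 bases are the reverse complement of miR-193* from base 2.
miR-3549: aUCUUGCCcgcaaagaccc

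Over the whole array, any array detected 206 of the 677 miRNAs, and the 176 found on 6 or more of the 13 arrays were tested. Single arrays detected 155 to 196 miRNAs and had 0 saturated spots. The arrays lay on 2 slides, the first with 4 HFD and 4 Control arrays and the second with 2 HFD and 3 Control arrays. miR-1, a miRNA of skeletal and heart muscle, was high on HFD 629 (log2 level 2.74), Control 662 (2.50) and Control 664 (1.94) and lay between -5.24 and -1.28 on the other arrays. The fat label could not be checked against genes that define fat cells, because only miRNAs were measured.

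All 3 members were detected on all 13 arrays, but at unequal distance from the background. The total gene signal, which is the scanner software's background-subtracted intensity per miRNA, ran from 1206 to 2421 for miR-193 over all arrays, with a median of 1822. For miR-365 it ran from 2613 to 4244 with a median of 3119, and for miR-193* from 32.8 to 56.4 with a median of 43.0. Divided by the software's own error estimate, that signal was 13.4 to 13.6 for miR-193 and 13.6 to 13.9 for miR-365, against 7.62 to 10.8 for miR-193*. The star strand thus had the lowest signal over error of the 3 members. Brightness depends on the probe as well as on the RNA, so these signals do not rank the members by abundance. The other arm of the miR-365 hairpin, miR-365*, and the antisense miR-3549 were detected on 0 of 13 arrays.

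miR-193* was read by 4 probes of 5 spots each, and 2 of these never gave a signal. Probe 1 had a mean intensity of -7.42 to -0.382 and probe 2 of 2.31 to 12.7, and neither was well above background on any array. Probes 3 and 4 were detected on all 13 arrays, with 45.3 to 80.5 and 53.8 to 97.8. The dim probes stand at the floor, the lowest value allowed, on every array, so a level averaged over all 4 probes holds 2 constants and shows less of any difference than the detected probes alone. miR-193 and miR-365 had 2 probes of 10 spots each, all detected on all 13 arrays. Across the 13 arrays, the correlation between the 2 probes was r = 0.97 for miR-193 and r = 0.91 for miR-365, against r = 0.46 for the 2 detected probes of miR-193*, as a description of how well repeat readings of the same RNA follow each other.

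**Figure D1:**
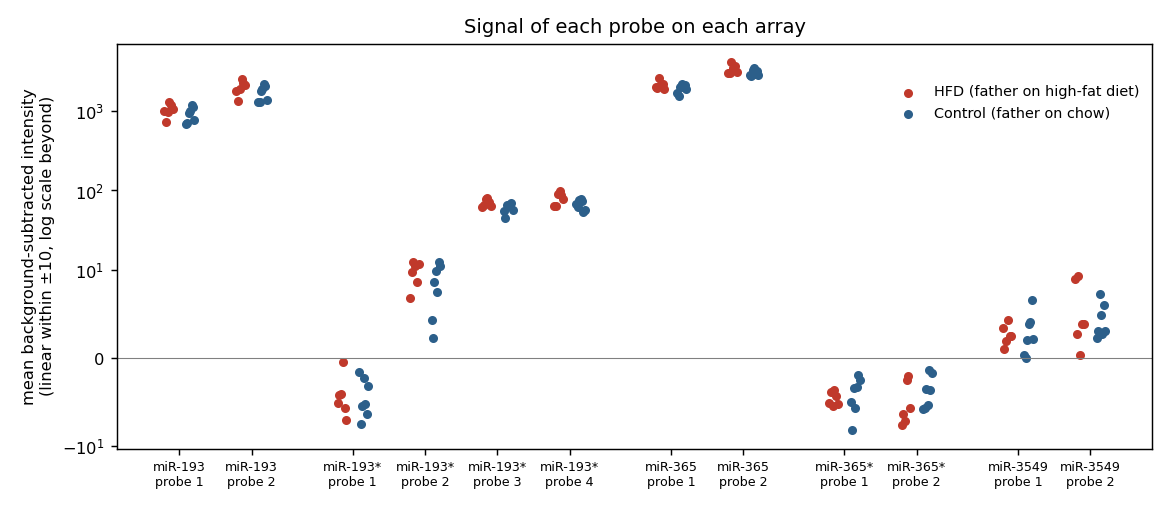
Mean background-subtracted intensity of each probe (vertical axis, linear within 10 of 0 and logarithmic beyond) of the 3 members, of miR-365* and of miR-3549, 1 point per array, HFD left of Control. Probes of miR-193 and miR-365 lie far above 0 on all arrays, while 2 of the 4 miR-193* probes and all probes of miR-365* and miR-3549 lie near 0.

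Levels are given from here on as log2 of a probe's background-subtracted intensity over the 75th percentile of the 260 probes detected on all arrays of that array, averaged over the probes of the miRNA, so that 0 means as bright as that percentile. miR-193 had a log2 level of -0.35, -0.73, -0.44, -0.49, -0.40 and -0.46 in HFD 619, 620, 624, 629, 660 and 663, against -0.98, -0.68, -0.66, -0.65, -0.33, -0.47 and -0.89 in Control 622, 627, 631, 656, 658, 662 and 664. The HFD arrays lay close together apart from HFD 620, and 5 of 6 were above the Control mean. The Control arrays spanned the whole HFD range, with Control 658 above every HFD array and Control 622 and 664 below every one.

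miR-193 averaged -0.48 ± 0.13 in HFD and -0.67 ± 0.22 in Control (SD, n = 6 and 7). The difference, HFD minus Control, was 0.19 ± 0.10 on the log2 scale (SE), or 1.14-fold with a 95% interval of 0.98 to 1.33. It did not pass the test (limma, adjusted p = 0.965 over the 176 miRNAs, unadjusted p = 0.0848). Its probes gave the same picture, with differences of 0.17 ± 0.10 for probe 1 and 0.21 ± 0.10 for probe 2.

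For miR-193*, the level on the 2 detected probes, a choice made after the data were seen, was -4.75, -4.68, -4.47, -4.84, -4.78 and -4.87 in HFD 619, 620, 624, 629, 660 and 663. It was -4.92, -4.87, -4.89, -4.93, -4.87, -5.13 and -5.09 in Control 622, 627, 631, 656, 658, 662 and 664. HFD 624 was the highest array and Control 662 the lowest. On all 4 probes, every HFD array was above the Control mean and 5 of 6 were above every Control array, with HFD 663 just below the highest Control arrays. Of the 176 miRNAs tested, 2.27% had all 6 HFD arrays above the Control mean, 1.14% had at least 5 of 6 HFD arrays above every Control array, and in 0 did the groups fail to overlap.

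On all 4 probes miR-193* averaged -5.20 ± 0.072 in HFD and -5.31 ± 0.053 in Control (SD, n = 6 and 7), a difference of 0.11 ± 0.041 (SE; 1.08-fold). It ranked second of 176 by p (limma, unadjusted p = 0.0168) and did not pass the test (adjusted p = 0.965). On the 2 detected probes it averaged -4.73 ± 0.14 in HFD and -4.96 ± 0.11 in Control (n = 6 and 7), a difference of 0.22 ± 0.070 or 1.17-fold, again short of the threshold (limma, unadjusted p = 0.00725, adjusted p = 0.763). The two-sided exact permutation test over all 1716 splits of the arrays gave p = 0.00175 for miR-193*, which became 0.205 after adjustment over the 176 miRNAs; the smallest p it can give is 0.000583. Each detected probe was higher in HFD, by 0.21 ± 0.072 for probe 3 and 0.24 ± 0.11 for probe 4 (SE), and neither passed the test over 331 probes (limma, lowest adjusted p of all probes 0.963). With normexp background correction the same probes gave 0.090 and 0.099.

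miR-365 was spread more widely over the HFD arrays than over the Control arrays, to a degree that depends on the scaling. Its log2 level was 0.53, 0.56, 0.82, 0.13, 0.41 and 0.23 in HFD 619, 620, 624, 629, 660 and 663, against 0.24, 0.41, 0.31, 0.36, 0.28, 0.29 and 0.27 in Control 622, 627, 631, 656, 658, 662 and 664. HFD 619, 620 and 624 were above every Control array, and HFD 629 and 663 were below every one. The means were 0.45 ± 0.25 in HFD and 0.31 ± 0.058 in Control (SD, n = 6 and 7), and the difference of 0.14 ± 0.093 (SE; 1.10-fold, 95% interval 0.96 to 1.27) did not pass the test (limma, adjusted p = 0.965, unadjusted p = 0.159). The HFD SD was 4.32 times the Control SD, a ratio that 1.70% of the 176 miRNAs reached or exceeded, against a median ratio of 0.922 over all of them; the ratio was 0.588 for miR-193 and 1.35 for miR-193*. Over 13 settings with all arrays the ratio of miR-365 ran from 1.16 to 4.32, the lowest in the deposited values without scaling between arrays (SD 0.19 in HFD and 0.16 in Control), where 37.5% of the miRNAs had a ratio at least as high. The level of miR-365 correlated at -0.56 with the array's own 75th percentile, by which it was divided. The difference in spread was not tested.

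**Figure D2:**
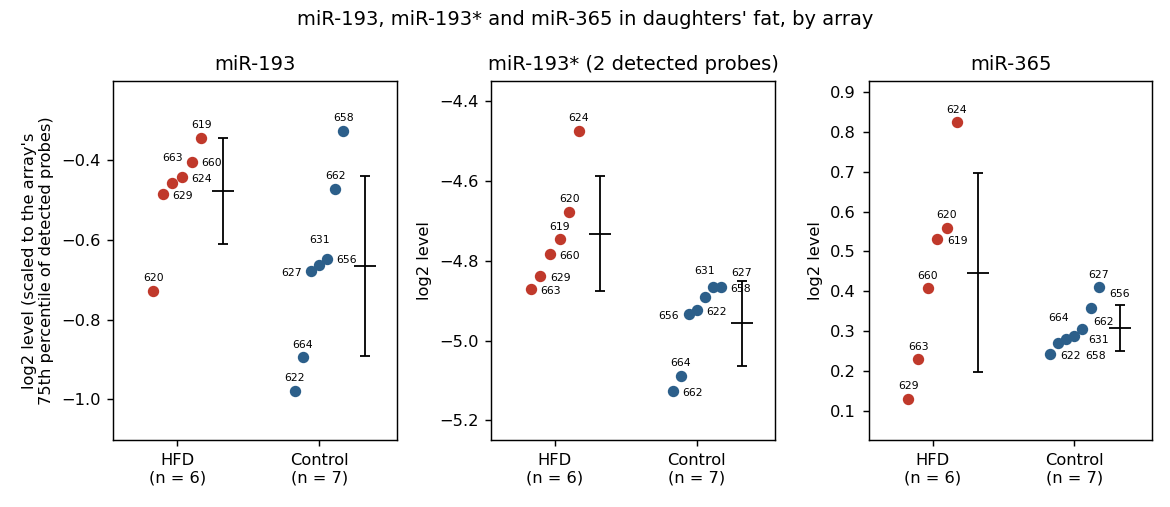
Log2 level (vertical axes, scaled to the array's 75th percentile of detected probes) of miR-193, of miR-193* on its 2 detected probes, and of miR-365 in HFD and Control arrays, each point an array with its animal number and each bar the mean ± SD (n = 6 and 7). All 3 panels span the same height; groups overlap in each, and for miR-365 the Control arrays lie between 0.24 and 0.41 while the HFD arrays lie between 0.13 and 0.82.

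Set side by side, the 3 members were all higher on average in HFD, by 0.19, 0.11 and 0.14 for miR-193, miR-193* and miR-365, which ranked 8th, 2nd and 17th of 176 by p. Of all 176 miRNAs 51.7% were higher and 48.3% lower in HFD, the median difference was 0.0028 and the median SE was 0.085. The limma test called 0 of 176 miRNAs (percent called 0), 2 had an unadjusted p under 0.05 (1.14%), and the exact permutation test likewise called 0, with 3 at an unadjusted p under 0.05. The intervals of the members do not exclude a difference of 0 for miR-193 and miR-365, nor one of up to 0.41 and 0.34. For miR-193* on all 4 probes the interval was 0.024 to 0.20, which is above 0 but not adjusted for the 176 miRNAs tested. In bulk tissue such as this, fewer cells of a type and less RNA per cell cannot be told apart.

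The size of each difference varied between the slides. Within the first slide it was 0.29 for miR-193, 0.081 for miR-193* and 0.069 for miR-365, and within the second it was 0.027, 0.16 and 0.27. These differences between slides did not pass the test of the interaction (limma, adjusted p = 0.504, 0.670 and 0.644). The second slide sets HFD 619 and 620, of the lower animal numbers, against Control 658, 662 and 664, all of the upper ones. Diet and animal number range cannot be told apart there. Control 662 and 664 are also among the 3 arrays of high miR-1. With slide as a block the differences were 0.19, 0.11 and 0.14. Leaving out 1 array at a time moved them over 0.14 to 0.24, 0.086 to 0.13 and 0.064 to 0.20. The lowest value for miR-365, 0.064, was the one without HFD 624, and the highest for miR-365 the one without HFD 629. Without the 3 arrays of high miR-1, an alternative chosen after the data were seen, the differences were 0.18, 0.093 and 0.19.

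**Figure D3:**
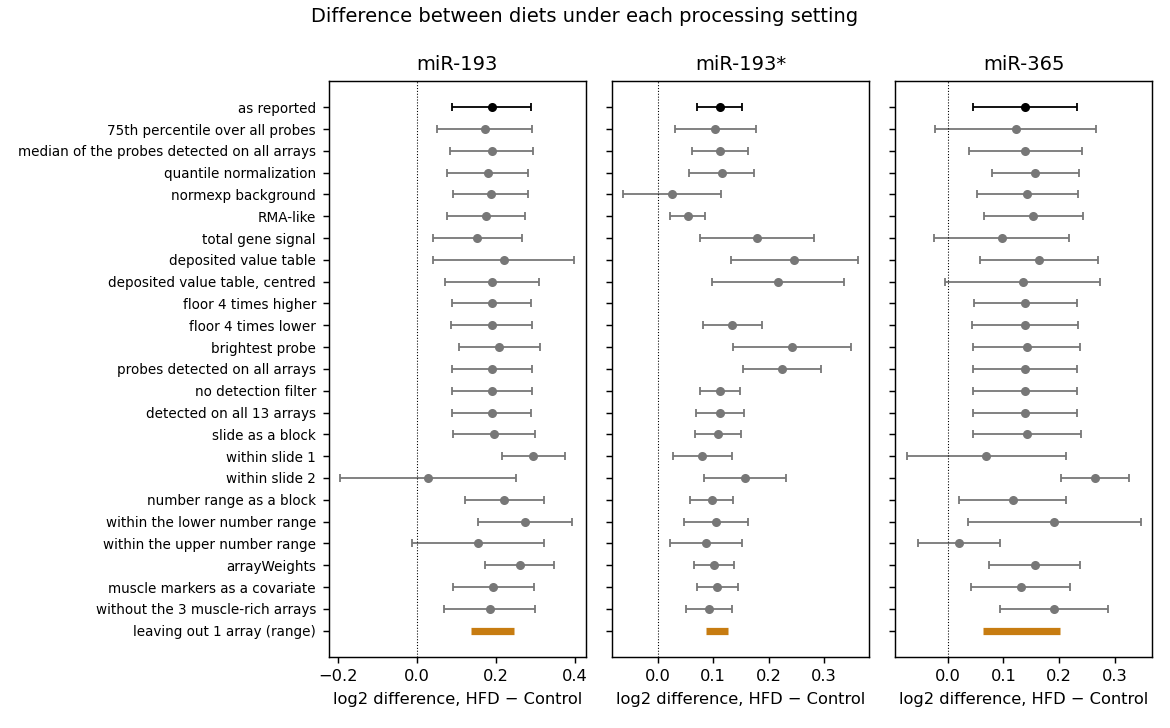
Log2 difference, HFD minus Control (horizontal axes), of miR-193, miR-193* and miR-365 as reported (black) and under each other setting (grey), with bars of 1 SE, and the range over fits that leave out 1 array (orange). All values lie above 0, between 0.027 and 0.29 for miR-193, 0.026 and 0.25 for miR-193* and 0.020 and 0.27 for miR-365; the extremes of miR-193 and miR-365 come from fits within a slide or number range. miR-193* has no value with the floor set 4 times higher because it then lies at the floor on all arrays.

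Strands of a hairpin come from the same transcript, and neighbouring hairpins may do so, so the members were compared with each other across animals. The strands of the Mir193 hairpin followed each other weakly over the 13 arrays (Pearson's r = 0.34, permutation p = 0.254, adjusted over the 3 pairs 0.381; Spearman's rho = 0.43, adjusted permutation p = 0.210). miR-193 and miR-365 did so less (r = 0.21, permutation p = 0.506, adjusted 0.506; rho = 0.18, adjusted permutation p = 0.565). Neither relation passed the test under this scaling. With the scale taken over all probes instead, the strands of Mir193 gave r = 0.63 and passed (adjusted permutation p = 0.0304), and with the centred deposited values they gave 0.56 (adjusted permutation p = 0.0662). The other pairs also had a higher r with the scale over all probes, 0.53 for miR-193 with miR-365 and 0.91 for miR-193* with miR-365. Under the first scaling, 22.9% and 34.3% of all 15400 pairs of tested miRNAs had an r at least as high as 0.34 and 0.21. Under that scaling these pairs were thus not far from the background. For the other scalings this share was not computed.

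miR-193* and miR-365, the arms of different hairpins, had the highest correlation of the 3 pairs (r = 0.78, permutation p = 0.00252, adjusted 0.00756; rho = 0.57, permutation p = 0.0478, adjusted 0.143). An r at least this high was found in 1.83% of all pairs, whose median r was 0.029. Over 11 settings with all arrays, r passed in 9 and rho, which ran from 0.47 to 0.92, in 6. Single arrays weighed on it. Without the 3 arrays of high miR-1 r was 0.94 (adjusted permutation p = 0.00138). Without HFD 624 it was 0.56 (adjusted permutation p = 0.178), and without the 2 arrays farthest from the median of miR-193*, HFD 624 and Control 662, it was 0.61 (adjusted permutation p = 0.131). Within the 6 HFD arrays r was 0.94 (exact permutation p = 0.00417, adjusted 0.0125) and within the 7 Control arrays 0.38 (exact permutation, adjusted p = 0.813). The difference between the groups' correlations was not tested. As given above, the 2 detected probes of miR-193* had an r of only 0.46 with each other. Both levels were divided by the array's own 75th percentile, with which miR-193* correlated at -0.28 and miR-365 at -0.56. The part of this scale in their correlation was not tested.

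Within the first slide (n = 8) the 3 correlations were 0.53 for the Mir193 strands, 0.29 for miR-193 with miR-365 and 0.86 for miR-193* with miR-365 (exact permutation, adjusted p = 0.213, 0.438 and 0.156); the second slide has 5 arrays, too few for a value. With each group's mean subtracted, they were 0.016, 0.019 and 0.77 (permutation, adjusted p = 0.959, 0.959 and 0.00825). Without the 2 farthest arrays the first pair gave 0.080 and the second -0.028. With group means subtracted, miR-193 thus had a correlation near 0 with both other members.

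**Figure D4:**
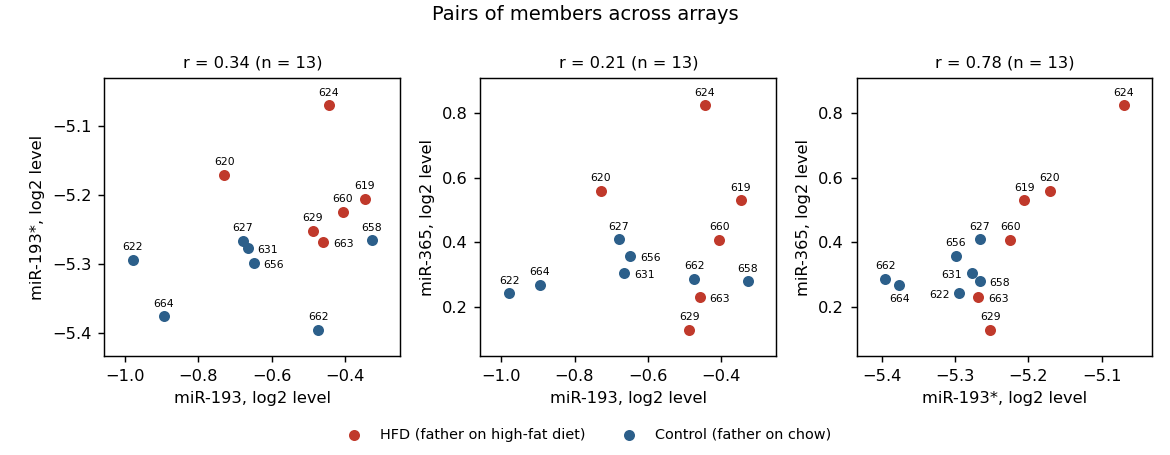
Log2 level of 1 member against another over the 13 arrays (both axes in log2 units), each point an array with its animal number, HFD in red and Control in blue. In the right panel HFD 624 stands highest on both axes, with HFD 620 and 619 next; the left and middle panels show no clear line (r = 0.34 and 0.21).

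The miRNAs whose levels ran most like each member were picked by Pearson's r over the 13 arrays among the other 175 tested miRNAs, so their high values are a product of the choice and are given as a description. For miR-365 they were miR-3545-3p (r = 0.96), miR-708 (0.95), miR-107 (0.83), miR-339-3p (0.82) and miR-103 (0.80). miR-103 and miR-107 are near-identical sisters that are abundant in fat and, in mouse, act on caveolin and insulin signalling. For miR-193* the first were miR-3545-3p (0.84) and miR-708 (0.81), ahead of miR-365 itself, then miR-203 (0.72), miR-770* (0.70) and miR-652* (0.67). Of these, miR-770* lay at the floor on 9 arrays and was detected on 8. Most like miR-193 were let-7a-1* (0.67), miR-101b (0.61), miR-378 (0.60), miR-30e (0.60) and miR-33 (0.53), none of them on the lists of the other members. let-7a-1*, miR-33 and miR-339-3p lay near the floor of -5.67, with HFD means of -5.40, -5.36 and -5.33. Over the 13 arrays they spanned only 0.11, 0.25 and 0.13 log2 units. miR-378 is cut from an intron of Ppargc1b and miR-33 from one of Srebf2, both genes of fat metabolism.

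Ranked the same way, miR-193* stood 28th and miR-365 44th of 175 in likeness to miR-193. In likeness to miR-193*, miR-365 stood 3rd and miR-193, its own partner strand, stood 42nd. The mature sequences of the 2 miRNAs most like miR-365, and of the miRNA most opposite to miR-193, are shown so that their seeds can be compared with those of the members. Seeds bear on targets, and why the levels ran alike or opposite was not tested.
miR-3545-3p (miR-203b-3p): uUGAACUGuuaagaaccacugg
miR-708 (miR-708-5p): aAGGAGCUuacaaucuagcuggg
miR-223 (miR-223-3p): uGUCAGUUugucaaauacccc
These and the 3 members have 6 different seeds. miR-3545-3p comes from chr6:137020716-137020737 on the minus strand, opposite the Mir203 hairpin, miR-708 from chr1:160011168-160011190 and miR-223 from chrX:65151450-65151470, both on the plus strand, so none of them neighbours Mir365b.

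miR-3545-3p and miR-708 lay near the floor of -5.67, as miR-193* did. miR-3545-3p was lowest in HFD 629 (-5.00) and highest in HFD 624 (-4.35) among the HFD arrays, ran from -5.03 to -4.76 in Control, and averaged -4.71 ± 0.24 in HFD and -4.91 ± 0.097 in Control (SD, n = 6 and 7). miR-708 averaged -5.43 ± 0.18 in HFD and -5.56 ± 0.064 in Control and was detected on 11 of 13 arrays. Both thus had a wider spread in HFD than in Control, as miR-365 had, with HFD 624 highest. Without HFD 624 the correlation with miR-365 was 0.91 for miR-3545-3p and 0.88 for miR-708, within the first slide (n = 8) it was 0.96 and 0.94, and over 10 settings of the processing it ran from 0.81 to 0.96 and from 0.69 to 0.95. Over the arrays, miR-365 correlated at -0.56 with the array's own 75th percentile, by which each level was divided, as given above, miR-193* at -0.28 and miR-193 at 0.27; the part of this scale in the likeness was not tested.

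miR-193 ran opposite to miR-223, a miRNA of myeloid cells, more than to any other tested miRNA (r = -0.87, rho = -0.77, n = 13). miR-223 was highest in Control 664 (-0.51) and Control 622 (-0.66), where miR-193 was lowest, and lowest in Control 658 (-1.39), where miR-193 was highest. Without the 2 arrays farthest from the median of miR-193 the r was -0.75, within the first slide it was -0.82, and over 10 settings it ran from -0.87 to -0.32, the last with the scale taken over all probes. All 6 tested white blood cell miRNAs had a negative correlation with miR-193, from -0.87 to -0.24, while for miR-193* and miR-365 2 of 6 were positive. These values are under the first scaling only, and the share of all tested miRNAs with a negative value was not counted. Negative values were not limited to white blood cell miRNAs. Of the 2 tested epithelial miRNAs, miR-205 gave -0.80 with miR-193 and miR-203 gave 0.027. miR-223 averaged -1.02 ± 0.099 in HFD and -0.91 ± 0.29 in Control (SD, n = 6 and 7), a difference of -0.11 ± 0.12 (SE). Most opposite to miR-193* was miR-127 (-0.73), detected on 6 arrays, and to miR-365 miR-128 (-0.72). miR-128 was highest on HFD 629 (-4.60), Control 664 (-4.80) and Control 662 (-4.81), the arrays of high miR-1.

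**Figure D5:**
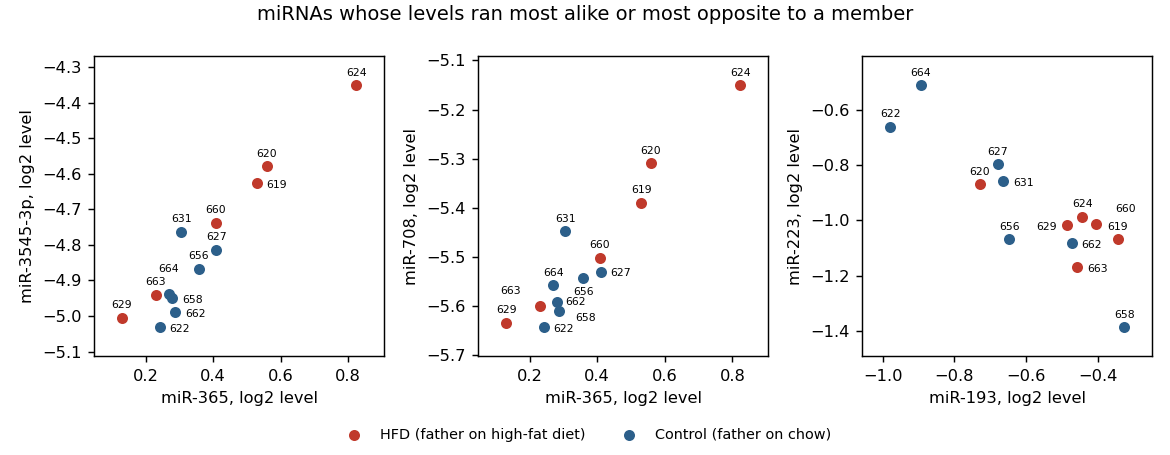
Log2 levels over the 13 arrays of miR-365 against miR-3545-3p and miR-708, the miRNAs most like it, and of miR-193 against miR-223, the miRNA most opposite to it (all axes in log2 units), each point an array with its animal number, HFD in red and Control in blue. The first 2 panels rise along a line to HFD 624 (r = 0.96 and 0.95), and the right panel falls, with Control 664 and 622 at its upper left and Control 658 at its lower right (r = -0.87).

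The members were placed on a longer list of miRNAs reported to promote brown or beige fat cells, mostly in mouse. The brown fat work given above concerns miR-193b. miR-193 and miR-193*, which stand for miR-193a, are thus on the list by family name. Of the list's 20 names, 19 had a row, 16 were detected on at least 1 array and 15 were tested. 10 were higher and 5 lower in HFD with a median difference of 0.11, against 51.7% higher and a median of 0.0028 over all tested miRNAs. Without the 3 members it was 7 higher and 5 lower, with a median of 0.080. The test called 0 of them. By the lowest p the list was led by miR-193* and miR-193, then miR-378* (0.14 ± 0.092, SE), the partner strand of miR-378, and miR-455* (-0.089 ± 0.058), which lay at the floor on 7 arrays. miR-182, miR-455 and miR-129 were not detected.

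A list of miRNAs reported to restrain brown fat had 12 names, of which 11 had a row and were detected and 10 were tested, 4 higher and 6 lower in HFD with a median of -0.064. Again 0 passed the test. Lowest by p was miR-214, which averaged -3.20 ± 0.14 in HFD and -2.82 ± 0.28 in Control (SD, n = 6 and 7), a difference of -0.37 ± 0.12 (SE; limma, adjusted p = 0.965). It was followed by miR-199a-3p (-0.26 ± 0.12), which shares a transcript with miR-214, miR-27b (-0.19 ± 0.14), which in mouse holds back Prdm16, and miR-125b-5p (-0.072 ± 0.060).

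Between the lowest and the highest array, the members spanned 1.57-fold for miR-193, 1.62-fold for miR-365 and, for miR-193*, 1.25-fold on all 4 probes and 1.57-fold on the 2 detected ones. Muscle markers spanned far more, and endothelial markers did not. The summed scaled signal of the 3 tested muscle miRNAs ran from 0.0919 to 12.9 in HFD and from 0.105 to 10.9 in Control, that of 3 red cell miRNAs from 3.15 to 6.91 and from 1.72 to 5.51, and that of 6 white blood cell miRNAs from 2.60 to 3.14 and from 2.37 to 4.09. The 2 endothelial miRNAs summed to 3.01 to 3.74 in HFD and 2.91 to 3.77 in Control. Of these, 0 of 3 muscle, 3 of 3 red cell, 1 of 6 white cell and 2 of 2 endothelial miRNAs were higher in HFD, and 0 passed the test.

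miR-1, the brightest muscle marker, correlated at 0.093 with miR-193, -0.45 with miR-193* and -0.35 with miR-365. miR-451, the brightest red cell marker, gave 0.37, -0.10 and -0.33. Its own difference was 0.55 ± 0.33 (SE), with all 6 HFD arrays above the Control mean, and with miR-144 (0.59 ± 0.41) and miR-144* (0.42 ± 0.25) it made up the 3 largest positive differences of the 176 miRNAs, 0 of which passed the test (limma, adjusted p = 0.965). miR-126, the brightest endothelial one, gave 0.029, 0.54 and 0.63. For the brightest white cell marker, miR-142-3p, the difference between the groups was -0.064 ± 0.19. Among epithelial markers miR-200c, miR-141 and miR-429 were not detected. Of the 2 tested, 1 was higher and 1 lower in HFD. The brightest was miR-203 (0.17 ± 0.12, SE), which is also on the list of miRNAs reported to promote brown fat. The other was miR-205 (-0.19 ± 0.21). miR-122 of liver (0.35 ± 0.72), miR-7a of pancreatic islets (0.090 ± 0.091), miR-192 of gut and kidney (0.097 ± 0.11) and miR-128, listed for nerve (-0.068 ± 0.15), were dim, and miR-375 and miR-124 were not detected. miR-128 was highest on the arrays of high miR-1, as given above, and whether it read nerve or muscle here was not tested. With the muscle markers as a covariate the member differences were 0.19, 0.11 and 0.13; the part of the other cell types in them was not tested.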

How the data were processed

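Fat RNA of 13 rats (100 ng each, labelled with Cy3) was hybridised to 1-colour Agilent rat miRNA arrays, 1 per animal. Per the file headers, the authors read the scans with Agilent Feature Extraction 10.7.3.1 on an rn4 grid; the deposited spot values are background-subtracted intensity, not normalized between arrays. The deposited value table holds log2 of the total gene signal (of 2569 values, 26 differed from it by more than 2e-04), uncentred, with column medians of 6.95 to 7.77, and served as an alternative. RMA and Partek are named, per the submitters' processing notes, but not what they were used for.

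Control spots and outlier spots (11, 0 and 16 of 260 for miR-193, miR-193* and miR-365) were left out. Each probe's mean over its spots was scaled to its array's 75th percentile (over the 260 probes found on every array), raised to a floor of 0.0197 (log2 -5.67) where lower, and taken to log2; a miRNA's level is the mean over its probes. A probe was detected where at least 0.5 of its spots were well above background, and a miRNA detected on at least 6 arrays was tested. The number of arrays limits the precision.

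HFD and Control, grouped by sample title, were compared in R 4.3.3 with limma 3.58.1 over all 176 tested miRNAs (lmFit, eBayes, two-sided, Benjamini-Hochberg, threshold 0.05), and over 331 probes. Correlations used 100000 permutations, or all of them for fewer than 10 arrays. The fits were tested on simulated data. Named miRNAs are the members; per member the 5 with the highest r and the 1 with the lowest; the 4 lowest p of each brown fat list; and the brightest tested marker of each cell type. The members and lists were chosen with earlier results of these data known. Alternatives were other scalings, backgrounds, floors, probe rules, filters, slide and animal number range as blocks, array weights, muscle markers as a covariate, and leaving out arrays. Because the files hold no mean signal, normexp ran on median signals. Probe sequences and exon structure were not used here.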

Additional observations from a re-analysis of the deposited data

Results flagged for a closer look

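Of 18 groups of 6 or 7 values checked for a value far from the rest (each member and each detected probe in HFD and in Control), 3 held one. Chance gives about 1 in 20 for a single group, but the groups overlap because a member's level is the mean of its probes. The first far value was miR-193 in HFD 620, with a log2 level of -0.73 below the other HFD arrays, which lay between -0.49 and -0.35. The second was its probe 2 on the same array, at -0.29, which is part of the first value. The third was probe 4 of miR-193* in HFD 624, at -4.36 the highest of the HFD arrays. HFD 620 was low for miR-193 and high for miR-365 (0.56), while HFD 624 was the highest array for both miR-193* and miR-365.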

How the results depend on the processing

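Under the 36 alternatives tried, 0 miRNAs were called, with the lowest adjusted p at 0.124 (limma) within the second slide. With all 13 arrays kept, the member differences ran from 0.15 (total gene signal) to 0.26 (array weights) for miR-193, 0.026 (normexp) to 0.25 (deposited values) for miR-193* and 0.097 (total gene signal) to 0.16 (deposited values) for miR-365; within a slide or number range they ran from 0.027 to 0.29 for miR-193 and 0.020 to 0.27 for miR-365. All were positive. For miR-193*, the values were 0.18 from the total gene signal, 0.24 on the brightest probe and 0.054 after RMA-like summarising; the probes at the floor were constants as reported above, and the cause of the other shifts was not tested. The correlation of miR-193 with miR-193* was 0.63 with the scale over all probes, which passed (permutation, adjusted p = 0.0304), -0.14 with normexp and -0.13 within HFD. That of miR-193 with miR-365 was -0.052 within HFD and -0.028 without the 2 farthest arrays. That of miR-193* with miR-365 no longer passed with normexp (0.57), on the brightest probe (0.66), within the first slide (0.86), within Control (0.38) and without the 2 farthest arrays (0.61). Leaving out 1 array gave 0.18 to 0.49, 0.087 to 0.29 and 0.56 to 0.86, the last pair missing the threshold only without HFD 624; the cause was not tested. Within the lower and the upper animal numbers the member differences were 0.27 and 0.15, 0.10 and 0.088, and 0.19 and 0.020. No paired analysis was possible because no animal number is shared between the groups. The low intensity of miR-193* limits what these arrays show of it.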
